A study of Bos taurus with 12 samples.

Results

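Transcripts of 9 genes of the bovine mitochondrial genome were followed through 12 single cattle blastocysts. The 9 genes were chosen by their Ensembl identifiers, out of 27607 identifiers in the count table, and all 9 had reads in every library. They comprise 8 protein-coding genes and ENSBTAG00000043570, a very abundant transcript of the same genome whose product the sources used here do not name. The study measured RNA in 5 blastocysts that lacked exon 1 of OCT4, called edited here, and in 7 wild-type controls, all produced in vitro and collected at day 7.5. OCT4 is a transcription factor of pluripotent cells, and the series title names double electroporation of CRISPR-Cas systems that target DNA and RNA as the means of removing its function. Parentage, sex, batch and date of collection are not in the labels, which also leave unsaid whether the controls were electroporated. Each library was made from part of the lysate of 1 whole embryo, so fewer cells of a type and less RNA per cell cannot be told apart.

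The mitochondrial genome is a small circle of DNA inherited through the oocyte. It encodes core subunits of the respiratory chain and of ATP synthase, and also the ribosomal and transfer RNAs with which mitochondria translate them. Each strand is transcribed as a long precursor that is then cut into single RNAs, so that genes of one strand start from a shared transcript and their final levels also depend on how stable each RNA is. All other parts of these enzymes are encoded in the nucleus.

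The RefSeq table of the cattle genome (ARS-UCD2.0) lists 37 mitochondrial genes, of which 13 are protein-coding, 2 encode ribosomal RNA and 22 encode transfer RNA. The 9 genes are therefore a part of that genome, and their sum is not the whole mitochondrial share of a library. Neither the count table nor the RefSeq table pairs these identifiers with a symbol, a length or a chromosome. The genes are given by identifier, levels of different genes are not compared, and markers of blastocyst cell types and nuclear genes of the respiratory chain, which were listed by symbol, were not analysed here. In the count table the 9 genes lay within 32 adjacent rows. Of the 23 other rows between them, 5 had a median of at least 100 reads and 18 had a median under 20 reads.

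Libraries held 168974 to 4781663 reads assigned to genes. Edited embryos 1 and 3, with 3202922 and 3145326 reads, lay within the wild-type range of 2762133 to 4781663. Edited embryos 4, 5 and 2 lay below it, with 1478796, 778114 and 168974 reads. Edited embryo 2, the shallowest library, was the one without which the main comparisons are also given.

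The 9 transcripts took a larger share of the reads in edited than in wild-type blastocysts. In edited embryos 1 to 5 the summed shares were 4.69%, 14.4%, 6.37%, 7.92% and 14.8%. In wild type the lowest summed share was 3.98%, the median 4.76% and the highest 5.71%. Edited embryos 2, 3, 4 and 5 thus lay above every wild-type embryo, while edited embryo 1 lay among them. The means were 9.64% ± 4.68 (SD, n = 5) and 4.84% ± 0.620 (SD, n = 7). Their difference of 4.80 percentage points, about as large as the SD of the edited embryos, passed the test (exact permutation test over all divisions of the embryos, two-sided, p = 0.00631, Benjamini-Hochberg adjusted over 3 share tests 0.00947). The test takes embryos as exchangeable between the groups, so the larger spread of the smaller, edited group also bears on its p. With edited embryo 2 left out, the edited mean was 8.45% ± 4.45 (SD, n = 4) and the difference 3.61 points (exact permutation p = 0.0152, adjusted 0.0227). Leaving out edited embryo 3, 4 or 5 as well gave 4.30, 3.79 and 1.48 points and ended the call (adjusted p = 0.0625, exact permutation). In the 2 edited embryos whose depth lay within the wild-type range, the mean was 5.53%, and the difference of 0.688 points did not pass the test (exact permutation p = 0.278, adjusted 0.417, a comparison chosen after the data were seen, in which the smallest possible p is 0.0278). Counting error was small beside these differences if each read stood for a separate molecule, which the sources do not settle. The half-widths of the 95% Wilson intervals were 0.0184 to 0.167 points for the summed shares. They were at most 0.157 points for ENSBTAG00000043570 alone and 0.0658 points for the 8 others.

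**Figure D1:**
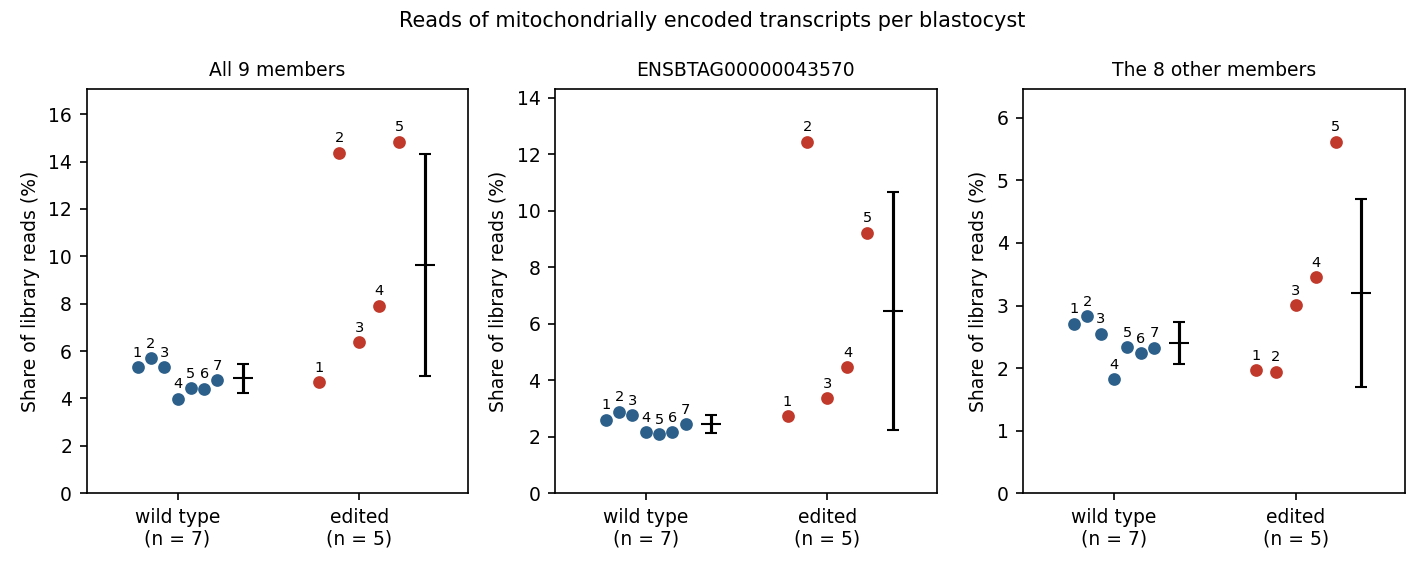
Share of each library's reads (%, linear axes from 0) taken by all 9 members, by ENSBTAG00000043570 and by the 8 other members, in 7 wild-type (blue) and 5 edited (red) blastocysts; numbers name the embryos, and black bars give the mean ± SD. Edited embryos 2 and 5 stand far above wild type for all 9 members (14.4% and 14.8%), whereas for the 8 others embryo 2, at 1.94%, lies within the wild-type range.

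Most of the difference lay in ENSBTAG00000043570. It took more reads than any other identifier in all 12 libraries, a statement about reads that is not corrected for gene length. In edited embryos 1 to 5 it took 2.73%, 12.4%, 3.36%, 4.47% and 9.22% of reads. In wild type its share ran from 2.09% over a median of 2.44% to 2.88%. Edited embryos 2 and 5 had several times the wild-type share, and on this scale edited embryo 1 was no higher than the highest wild-type embryo. The mean shares were 6.44% ± 4.21 (SD, n = 5) and 2.44% ± 0.318 (SD, n = 7), and the difference of 4.002 points passed the test (exact permutation p = 0.00379, adjusted 0.00947). The other 4 edited embryos differed from wild type by 2.50 points (exact permutation p = 0.00909, adjusted 0.0227). It fell to 1.08 points, and lost the call, when edited embryo 5 was left out as well (adjusted p = 0.0625, exact permutation). The call was also lost, with differences of 3.03 and 2.66 points, when edited embryo 3 or 4 was left out in its place (adjusted p = 0.0625, exact permutation).

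The 8 protein-coding genes together did not pass the test. Their summed shares were 1.97%, 1.94%, 3.01%, 3.45% and 5.62% in edited embryos 1 to 5. In wild type they ran from 1.82% over a median of 2.34% to 2.83%. Edited embryos 3, 4 and 5 exceeded the highest wild-type share, and edited embryos 1 and 2 lay in the lower part of the wild-type range. The means were 3.20% ± 1.51 (SD, n = 5) and 2.40% ± 0.334 (SD, n = 7), a difference of 0.794 points (exact permutation p = 0.187, adjusted 0.187). For the other 4 edited embryos against wild type the difference was 1.11 points, with edited embryo 2 left out (exact permutation p = 0.0545, adjusted 0.0545). With edited embryo 1 left out as well, the difference was 1.62 points and passed (adjusted p = 0.00833, exact permutation).

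The balance between ENSBTAG00000043570 and the 8 protein-coding genes also differed, a measure that does not depend on how the rest of a library is scaled. ENSBTAG00000043570 made up 58.1%, 86.5%, 52.8%, 56.4% and 62.1% of the 9-member reads in edited embryos 1 to 5. In wild type it made up from 47.2% over a median of 50.4% to 54.3%. Edited embryos 1, 2, 4 and 5 lay above every wild-type embryo, and edited embryo 3 lay within their range. The difference of the means was 12.7 percentage points (63.2% ± 13.5, SD, n = 5, against 50.5% ± 2.31, SD, n = 7; exact permutation p = 0.00253, adjusted over 9 genes 0.0170). Expressed as a ratio, there were 6.42 reads of ENSBTAG00000043570 for each read of the 8 others in edited embryo 2, between 1.119 and 1.64 in the other edited embryos, and between 0.893 and 1.19 in wild type. The difference was 6.92 points without edited embryo 2 (exact permutation p = 0.00606, adjusted 0.0477). That call was narrow: leaving out 1 further embryo took the adjusted p to between 0.0188 and 0.15, and above the threshold in 8 of 11 cases. In the 4 of these 11 cases that left 3 edited embryos, the smallest possible p is 0.00833, so a lone gene could not pass after adjustment over 9 genes.

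As shares of one sum, the parts of the 8 protein-coding genes were lower where that of ENSBTAG00000043570 was higher. ENSBTAG00000043556, ENSBTAG00000043560, ENSBTAG00000043561 and ENSBTAG00000043584 passed the test with lower parts in edited embryos, and ENSBTAG00000043550, ENSBTAG00000043558, ENSBTAG00000043563 and ENSBTAG00000043568 did not (exact permutation, adjusted p over the 4 that passed 0.0170 to 0.0318). ENSBTAG00000043561 made up 10.0% ± 3.71 of the 9-member reads in edited (SD, n = 5) and 13.4% ± 0.911 in wild-type embryos (SD, n = 7). ENSBTAG00000043560 made up 7.83% ± 2.57 and 10.5% ± 0.763. In the 11 embryos other than edited embryo 2, ENSBTAG00000043556 no longer passed (adjusted p = 0.109) and the other 3 did (adjusted p = 0.0477 each), although each of these lost the call in 9 of 11 cases when 1 further embryo was left out.

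Among themselves, the 8 protein-coding genes had mean parts that differed by less than 1 point between the groups. Of the reads of these 8, ENSBTAG00000043561 took 27.2% in edited and 27.1% in wild-type embryos, ENSBTAG00000043560 took 21.9% and 21.2%, and ENSBTAG00000043550 took 16.2% and 16.4%. None of the 8 passed the test on this scale (exact permutation, lowest unadjusted p = 0.184, adjusted 0.965 for all). The differences of the means lay between -0.541 points for ENSBTAG00000043584 and 0.722 points for ENSBTAG00000043560. Single embryos differed by more. ENSBTAG00000043558 took 4.88% of these reads in edited embryo 5, against 2.198% in edited embryo 2, and ENSBTAG00000043568 took 2.41% and 1.28%. In edited embryo 2, which stood apart so far in ENSBTAG00000043570, the part of ENSBTAG00000043561 was 26.8%. Reads of the 8 genes in that library numbered from 42 for ENSBTAG00000043568 to 879 for ENSBTAG00000043561.

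**Figure D2:**
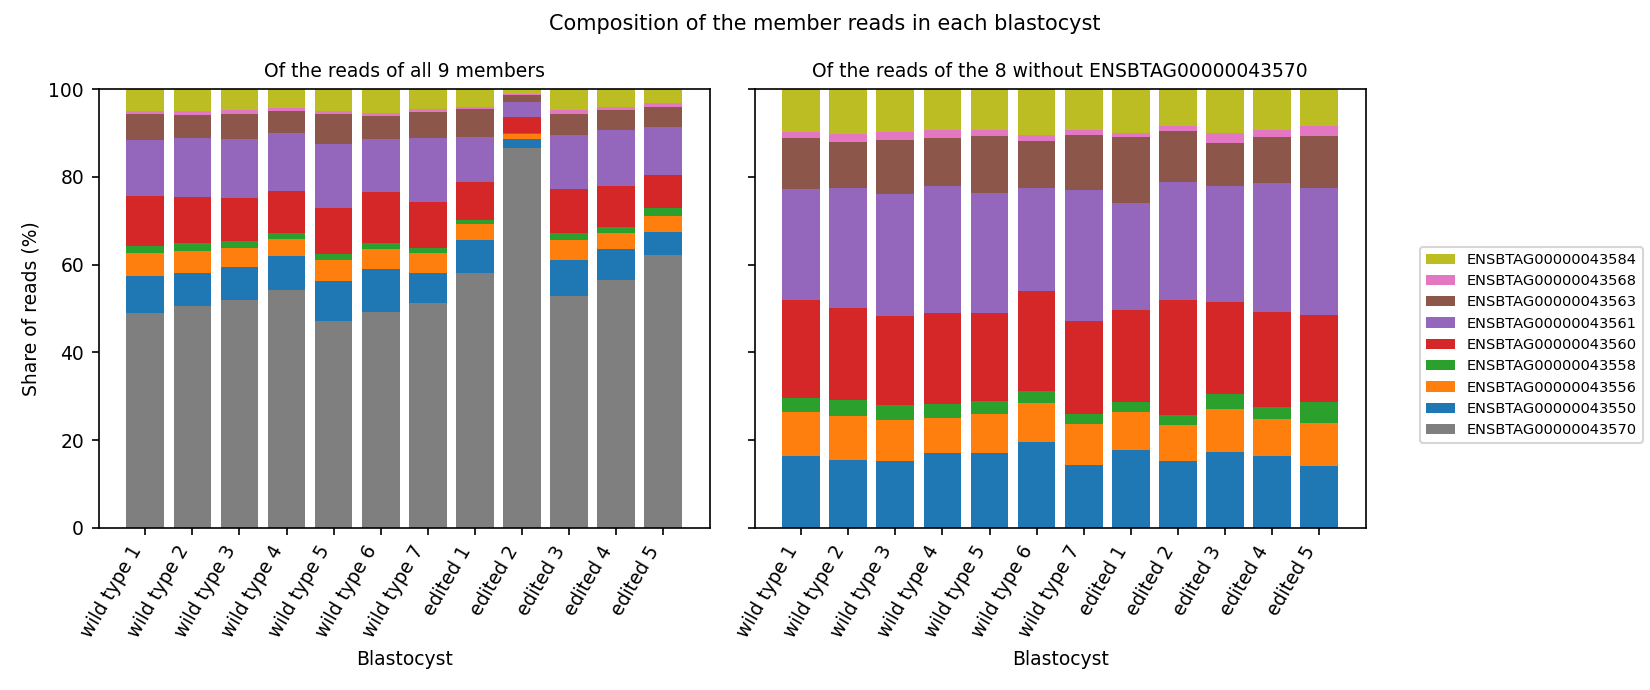
Stacked bars give the part of each gene (%) in the reads of all 9 members (left) and of the 8 members other than ENSBTAG00000043570 (right) in each blastocyst. On the left the grey part of ENSBTAG00000043570 reaches 86.5% in edited embryo 2, and on the right ENSBTAG00000043561 averages 27.2% in edited and 27.1% in wild-type embryos, while single embryos differ, as in ENSBTAG00000043550, which runs from 14.1% to 19.4%.

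Gene by gene, reads were then scaled to a common library size (CPM) with TMM factors, which correct for a library's composition, and tested with edgeR over all genes. These factors ran from 0.833 to 0.996 in edited and from 1.05 to 1.08 in wild-type embryos. ENSBTAG00000043570 had 27606, 128923, 36149.6, 53874 and 111189 CPM in edited embryos 1 to 5. In wild type it ran from 19371 over a median of 23251 to 27254 CPM. On this scale the groups did not overlap, with every edited embryo higher, embryo 1 by a small margin, as in 0.738% of all tested genes. As shares of reads the groups did overlap, with 2.73% in edited embryo 1 and 2.88% in the highest wild-type embryo, so the separation depended on the factors. The log2 fold change of ENSBTAG00000043570 was 1.63 (SE 0.314), or 3.10-fold, and missed the threshold over all 12 embryos (edgeR adjusted p = 0.0558). ENSBTAG00000043570 rose 2.45-fold without edited embryo 2 (log2 fold change 1.29 with SE 0.285, and 0.0219 as the adjusted p of edgeR). Edited embryo 5 carried much of that rise, as the log2 fold change was 0.75 when it was left out as well. The call held when any 1 further embryo was left out (edgeR adjusted p at most 0.0461), and it was lost with log2 library size as a covariate (log2 fold change 0.33, edgeR adjusted p = 0.409).

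The 4 protein-coding genes with the most reads were each highest in edited embryo 5. ENSBTAG00000043561 had 4876, 5390.4, 8501, 12167 and 19574 CPM in edited embryos 1 to 5, and 4903 to 7277 CPM with a median of 6428 in wild type. ENSBTAG00000043560 had 4139, 5268, 6822, 9008 and 13431 CPM, against 3528 to 5689.8 with a median of 4860.2. In both, the edited embryos 3, 4 and 5 exceeded the highest wild-type value. Edited embryo 1 fell just below the lowest wild-type embryo for ENSBTAG00000043561 and within the wild-type range for ENSBTAG00000043560. ENSBTAG00000043550 had 3518, 3072, 5575, 6823 and 9586 CPM, against 2885 to 4202 with a median of 3706 in wild type. ENSBTAG00000043563 had 2980.2, 2336, 3216, 4395 and 8054 CPM, against 1860.1 to 2986 with a median of 2822. In the latter pair edited embryos 1 and 2 lay within the wild-type range and the other 3 above it.

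ENSBTAG00000043556 had 1729, 1637, 3183, 3450.4 and 6543 CPM in edited embryos 1 to 5, against 1382 to 2734 with a median of 2087 in wild type. ENSBTAG00000043584 had 1975, 1686, 3252, 3925 and 5639 CPM, against 1608 to 2718 with a median of 2282. In both, edited embryo 2 was the lowest and edited embryo 5 the highest of the edited embryos, and embryos 1 and 2 again lay among wild type. ENSBTAG00000043558 and ENSBTAG00000043568, with the fewest reads, spread most for their mean. ENSBTAG00000043558 had 470.7, 441.5, 1077, 1196 and 3305 CPM, against 514.0 to 954.8 with a median of 615.8 in wild type. ENSBTAG00000043568 had 198.4, 257.6, 689.1, 626.3 and 1634 CPM, against 290.3 to 519.5 with a median of 297.0. In both, edited embryos 1 and 2 lay below every wild-type embryo and edited embryos 3, 4 and 5 above, so the edited group surrounded the wild-type group on both sides.

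**Figure D3:**
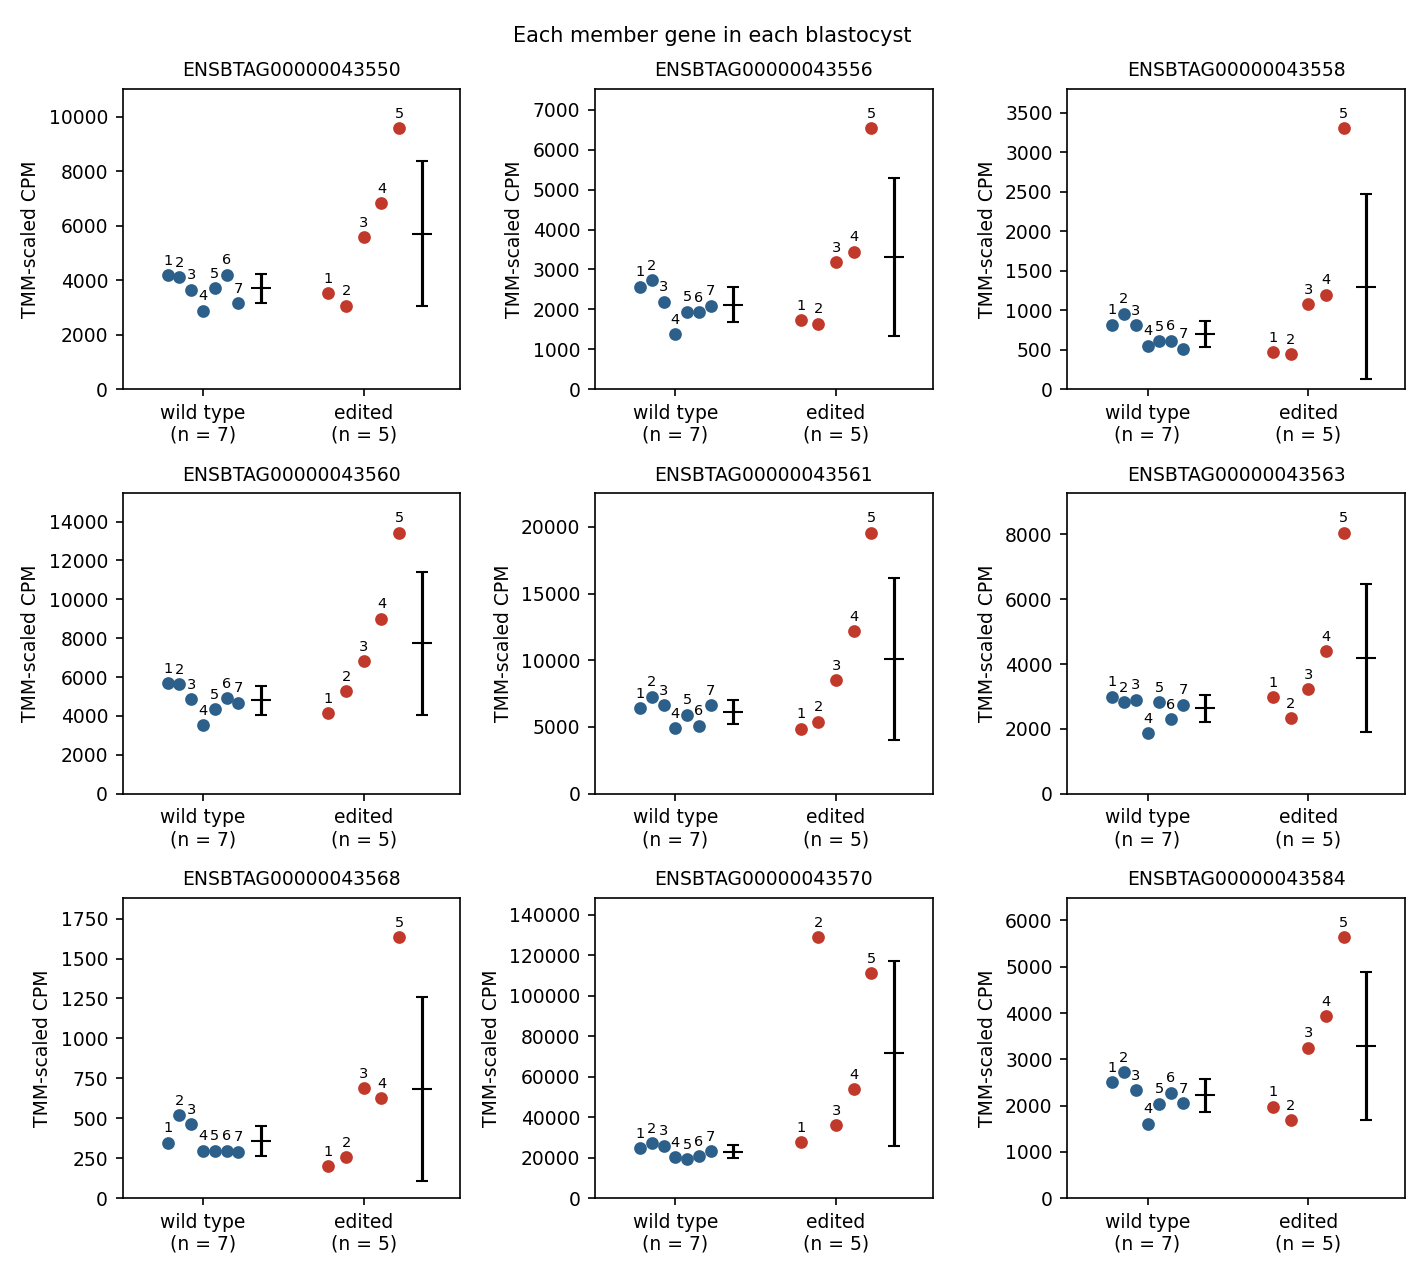
TMM-scaled CPM (linear axes from 0, a separate scale for each gene) of the 9 genes in 7 wild-type (blue) and 5 edited (red) blastocysts, with embryo numbers and the mean ± SD in black. In the 8 protein-coding genes edited embryos 3, 4 and 5 lie above wild type and embryos 1 and 2 do not, and only in ENSBTAG00000043570 is edited embryo 2, at 128923 CPM, the highest.

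Over all 12 embryos 0 of the 9 genes were called higher or lower, where 3 of 11926 tested genes (0.0252%) were called higher and 0 lower (edgeR, adjusted p under 0.05 by Benjamini-Hochberg). DESeq2 and limma voom with quality weights each called 1 of the 9 higher, ENSBTAG00000043570 (adjusted p = 0.000809 and 0.0384), where they called 2.64% and 2.66% of all tested genes higher. At an unadjusted p under 0.05 edgeR placed 9 of the 9 genes higher in edited embryos, as it did 7.43% of all tested genes. That count was 1 without edited embryo 5 (6.95% of all tested genes) and 5 to 9 when any other embryo was left out. It was 1 with scaling by library size alone (3.50%) and 2 with log2 library size as a covariate (10.9%). The log2 fold changes of the 8 protein-coding genes were 0.57 to 0.93, with edgeR adjusted p of 0.210 to 0.324. The median of the 9 log2 fold changes was 0.69, against -0.05 for all tested genes. When counts were scaled by library size alone the medians were 0.42 and -0.28.

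Once edited embryo 2 was left out, ENSBTAG00000043570 was the 1 gene of the 9 called higher and 0 were called lower, where 3.66% of 12308 tested genes were called higher and 1.63% lower (edgeR quasi-likelihood test). The 8 protein-coding genes had log2 fold changes from 0.72 for ENSBTAG00000043584 to 1.11 for ENSBTAG00000043568, with edgeR adjusted p of 0.0533 to 0.0970. DESeq2 called 8 of the 9 higher, all but ENSBTAG00000043556, where it called 6.31% of all tested genes higher. The calls depended on edited embryo 1, the edited embryo with the lowest levels among the remaining 4. With it left out as well, edgeR called 9 of the 9 higher, with a median log2 fold change of 1.02, where 3.97% of all tested genes were called higher. With edited embryo 5 left out in its place, edgeR called 1 of the 9 higher, where 3.92% of all tested genes were called higher. The median log2 fold change was then 0.45, against 0.80 with all 4 of these edited embryos. In edited embryos 1 and 3 alone against wild type, edgeR called 0 of the 9 genes, where it called 1.67% of all tested genes in either direction, a share at which 0 of 9 says little. In this comparison 0 of the 8 protein-coding genes were under an unadjusted p of 0.05, and ENSBTAG00000043570 (log2 fold change 0.46, SE 0.165, unadjusted p = 0.0155, adjusted 0.168) was.

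**Figure D4:**
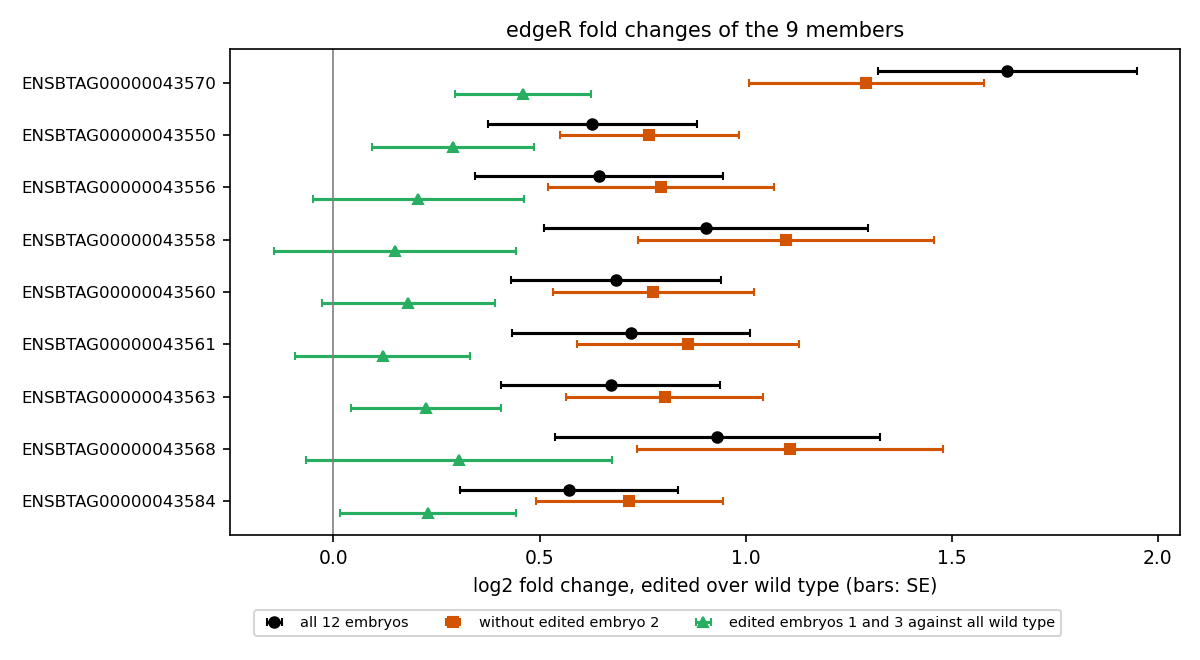
log2 fold changes of the 9 genes, edited over wild type, from edgeR, with SE as bars, over all 12 embryos (black circles), without edited embryo 2 (orange squares) and for edited embryos 1 and 3 against all wild-type embryos (green triangles). All points lie above 0, ENSBTAG00000043570 is highest in the first and second fit (1.63 and 1.29), and the green points, between 0.12 and 0.46, lie nearest to 0.

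Depth moved with these values. Across the 12 embryos the summed share of the 9 genes was lower in deeper libraries (Pearson r = -0.916, permutation p = 0.00104; Spearman rho = -0.797, permutation p = 0.00302; log2 total reads, n = 12), with adjusted p of 0.00312 and 0.00906 over 9 such relations. ENSBTAG00000043570 alone gave r = -0.978 (permutation p = 0.0001, adjusted 0.0009) and rho = -0.874 (permutation p = 0.00038, adjusted 0.00342), and the 8 protein-coding genes gave r = -0.250 (permutation p = 0.307, adjusted 0.345) and rho = -0.364 (permutation p = 0.247, adjusted 0.317). The protein-coding genes broke from the relation in edited embryo 2, the shallowest library, whose 1.94% was the lowest share of the 5 edited embryos. Without edited embryos 2 and 5, the libraries farthest from the median depth, r was -0.844 for all 9, -0.894 for ENSBTAG00000043570 and -0.694 for the 8 others (n = 10, permutation p = 0.0163, 0.00712 and 0.0446). With edited embryo 2 alone left out, r was -0.941 for all 9, -0.945 for ENSBTAG00000043570 and -0.913 for the 8 others (n = 11, permutation p = 0.0015, 0.00064 and 0.00398, adjusted 0.00337, 0.00288 and 0.00716), and rho was -0.745, -0.836 and -0.709 (permutation p = 0.0116, 0.00226 and 0.0184, adjusted 0.0262, 0.00906 and 0.0331). These relations rested on edited embryos 5 and 4: without them as well, r was -0.502, -0.606 and -0.316 (n = 9, permutation p = 0.143, 0.0647 and 0.417).

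The 3 shallowest libraries were all edited, so depth and genotype cannot be told apart in them, and the relation was also examined within the wild-type group. In the 7 wild-type embryos r was -0.529 for all 9 genes, -0.633 for ENSBTAG00000043570 and -0.379 for the 8 others (exact permutation p = 0.221, 0.117 and 0.406, adjusted 0.284, 0.176 and 0.406). The rho values there were -0.321, -0.571 and -0.393 (exact permutation p = 0.498, 0.2 and 0.396, adjusted 0.498, 0.3 and 0.445). When wild-type embryos 2 and 5, the farthest from the median depth, were left out, r was -0.00698, 0.103 and -0.0937 over the other 5. The wild-type libraries held only 2762133 to 4781663 reads. They therefore cannot show whether shares move with depth at the lower totals of edited embryos 2, 4 and 5. No correlation was computed within the 5 edited embryos. With log2 library size as a covariate, the log2 fold change of ENSBTAG00000043570 was 0.58 over all 12 embryos and 0.33 without edited embryo 2 (edgeR adjusted p = 0.246 and 0.409), in place of 1.63 and 1.29. The median log2 fold change of the 9 genes was 0.66 and 0.10 with this covariate, in place of 0.69 and 0.80. After thinning of the libraries in each comparison to equal totals, by 1 random draw, the log2 fold change of ENSBTAG00000043570 was 1.73 over all 12 embryos and 1.32 without edited embryo 2 (edgeR adjusted p = 0.0495 and 0.0136). Over all 12 embryos thinning left 4242 tested genes in place of 11926. The unadjusted edgeR p of ENSBTAG00000043570 there was 0.000148, in place of 6.85e-05, so the call came with fewer genes in the adjustment. Thinning draws reads at random, which keeps each gene's expected share of a library. It therefore cannot decide whether these shares go with traits of a shallow library other than its number of reads. In edited embryos 1 and 3, of nearly equal depth, the share of the 8 protein-coding genes was 1.97% and 3.01%. In wild-type embryos 1 and 4, with 3163372 and 3365072 reads, it was 2.71% and 1.82%.

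**Figure D5:**
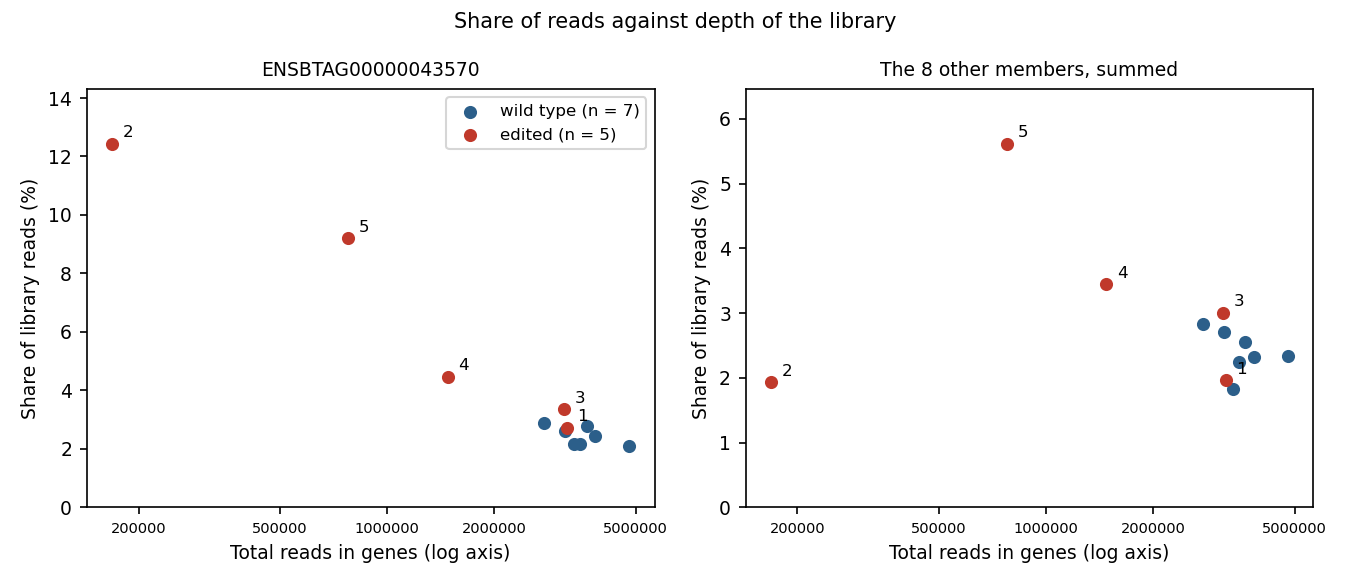
Share of library reads (%, linear axis from 0) of ENSBTAG00000043570 (left) and of the 8 other members (right) against total reads in genes (log axis) for 7 wild-type (blue) and 5 edited (red, numbered) blastocysts. On the left the share is highest in the 2 shallowest libraries, edited embryos 2 and 5 (12.4% and 9.22%), and on the right edited embryo 2 falls back to 1.94%.

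Of 9406 other genes with a mean of at least 10 CPM, ENSBTAG00000043567 followed the summed level of the 9 genes most closely across the 12 embryos (Pearson r = 0.989 of log2 CPM, given as a description of these libraries, which also share their depth), and ENSBTAG00000008001 came next (r = 0.969). ENSBTAG00000043567 had a mean of 27653 CPM in edited and 9641 CPM in wild-type embryos, and ENSBTAG00000008001 had 454.6 and 173.2 CPM. When edited embryo 2 was left out, ENSBTAG00000043567 was again the most alike (r = 0.989). Only the 9 genes were kept out of this search, so other mitochondrial genes remained in it. The sources do not say whether ENSBTAG00000043567 is one of them. ENSBTAG00000043570 made up 47.2% to 86.5% of the 9-gene sum in the single embryos, so likeness to the sum is largely likeness to that gene.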

How the data were processed

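The authors deposited raw counts, whole numbers of reads per Ensembl gene, in 1 table whose 12 columns all matched a sample by name. Per the submitters' processing notes featureCounts 2.0.1, HISAT2 2.2.1 and SAMtools 1.17 were among the tools and the build was ARS-UCD1.2 (bosTau9). The annotation release, the strand setting and whether molecular identifiers were collapsed are not given in the sources, so reads of overlapping or antisense mitochondrial genes, and of nuclear copies, are uncertain. Groups came from the genotype label, and the labels name no batch. Embryos are separate samples per the labels, and the tests set group differences against the spread between them, amplification included.

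The 9 genes, gene lists and tests were chosen with earlier results of these data known. All 9 genes were named, and the genes most alike by Pearson correlation, of which 2 identifiers were to be printed. Lists by symbol were not run, as the RefSeq table matched 0 identifiers.

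Gene tests used R 4.3.3 and edgeR 4.0.16 (TMM, filterByExpr, glmQLFit and glmQLFTest, both dispersions robust, deviances at their default), two-sided, on all genes, Benjamini-Hochberg adjusted at 0.05. Each SE is the absolute log2 fold change over the square root of F. CPM use the factors of all 12 libraries; log2 CPM for likeness used a prior count of 2. On simulated data the test called 14 of 99 genes changed 2-fold over all 12 embryos, and 26 of 99 without edited embryo 2. Of genes changed 4-fold it called 75 of 98 and 69 of 95, and of unchanged genes 3 of 11474 and 6 of 11872. A missing call thus says little about changes of about 2-fold or less. The simulated counts came from the fitted model, with the same dispersion in both groups and changed genes drawn at random from all tested genes. They do not carry the larger spread of the edited embryos, so they do not give the error rate in these data or the sensitivity for such abundant genes. Shares were compared by two-sided exact permutation over all splits of the embryos, so the smallest possible p is 0.00126 over all 12 embryos, 0.00303 without edited embryo 2, 0.00833 with 3 edited embryos and 0.0278 with 2. Permutation takes embryos as exchangeable between the groups, and the edited embryos, the smaller group, spread more. Its p is therefore not a test of the means alone. Correlations used 100000 resamples, or all pairings in wild type; those of ENSBTAG00000043570 and of the 8 others were added after the data were seen. Alternatives were other scalings, filters, DESeq2 1.42.0, limma 3.58.1, a depth covariate, thinning, other denominators, log2 shares and leaving out each embryo. Wilson intervals (95%) cover counting error only. Shares were computed in Python 3.11.15 (scipy 1.17.1, numpy 2.4.6, pandas 2.3.3) and plotted with matplotlib 3.10.9.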

Additional observations from a re-analysis of the deposited data

Results flagged for a closer look

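In 40 groups of values (each gene's CPM and its part of the 9-member reads, and the summed shares, in either genotype), 3 had an embryo whose gap to the next exceeded Dixon's critical value of 0.71 times the range of the 5 edited embryos, where chance gives about 1 in 20. ENSBTAG00000043570 made up 86.5% of the 9-member reads in edited embryo 2, against 62.1% in the next (gap 0.723 of the range). ENSBTAG00000043561 made up 3.62% there, against 10.3% in the next (gap 0.728), which shares its denominator with the first. ENSBTAG00000043558 had 3305 CPM in edited embryo 5, against 1196 in the next (gap 0.737).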

How the results depend on the processing

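All 9 log2 fold changes stayed above 0 under every alternative run, except ENSBTAG00000043558 without edited embryo 2 and with log2 library size as a covariate (-0.0599). Over all 12 embryos 1 gene in place of 0 was called higher with no filter, DESeq2, voom, bias-adjusted deviances or thinning, and 0 to 1 when each embryo was left out. Without edited embryo 2, in place of 1, 2 genes were called with the 10 CPM filter, bias-adjusted deviances or thinning, 8 with DESeq2 and 0 with the depth covariate, and 1 to 9 when each further embryo was left out. Calls over all tested genes went from 3 to between 1 and 729 over all 12 embryos, and from 652 to between 62 and 1593 without edited embryo 2. Scaling computed without the 9 genes gave the same number of member calls.

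For the shares over all 12 embryos, other denominators and log2 changed no call; leaving out each embryo gave differences of 3.50 to 6.03 points for the 9 genes, 2.50 to 4.93 for ENSBTAG00000043570 and 0.188 to 1.11 for the 8 others. In edited embryos 1 and 3 alone the differences were 0.688 for the 9 genes and 0.604 for ENSBTAG00000043570, neither past the threshold. Without edited embryo 2, leaving out a further embryo gave 1.48 to 4.86, 1.08 to 3.24 and 0.405 to 1.62 points, and the first and second lost the call without edited embryo 3, 4 or 5 (adjusted p = 0.0625), while the 8 genes passed without edited embryo 1 (1.62 points, adjusted p = 0.00833). The 8 genes passed there with a denominator free of the 9 genes (1.38 points), of the 50 most abundant others (1.41) or, added after seeing the data, of ENSBTAG00000043570 (1.27).

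For parts of the 9-member reads, 5 genes passed over all 12 embryos, 4 to 7 when each embryo was left out, 0 among the 8 genes, and 0 in edited embryos 1 and 3 alone, where a lone gene could not pass (smallest possible p of the exact permutation test = 0.0278); without edited embryo 2, 4 passed, 0 to 5 when each further embryo was left out, and 0 among the 8. Among the 8, differences that had been below 0 became 0.0793 (ENSBTAG00000043558), 0.722 (ENSBTAG00000043560), 0.0477 (ENSBTAG00000043561), 0.180 (ENSBTAG00000043563) and 0.0897 points (ENSBTAG00000043568), and without edited embryo 2 0.312 (ENSBTAG00000043558), 0.130 (ENSBTAG00000043561), 0.224 (ENSBTAG00000043563) and 0.186 (ENSBTAG00000043568). In the 9-member reads without edited embryo 2, leaving out a further embryo gave -0.237 to 0.0483 points for ENSBTAG00000043558, above 0 without edited embryo 1, and -0.115 to 0.0809 for ENSBTAG00000043568, above 0 without edited embryo 1, edited embryo 4 or wild-type embryo 2. Among correlations with depth, those in wild type alone missed the threshold (-0.529 and -0.633), and that of the 8 genes passed without edited embryo 2 (-0.913). Without edited embryos 2 and 5 the correlation of the 8 genes (-0.694) had an unadjusted permutation p of 0.0446, and no adjusted p was computed. Causes of these changes were not tested. At the depth of edited embryo 2, the scarcest gene rested on 42 reads. No paired analysis was possible because the labels give no number shared by an edited and a wild-type embryo.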
